A study of Mus musculus with 12 samples.

Results

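The 39 genes described here encode the machinery with which fat cells store and make lipid. They were taken as the count table's entries whose Ensembl identifier maps to a written list of gene symbols, and all 39 were found among 52636 identifiers. By role, they comprise 2 transcription factors, 7 genes of the lipid droplet, 8 of lipolysis and its control and 4 of fatty acid and glucose uptake. A further 6 serve triglyceride assembly, 9 de novo lipogenesis and 3 oxidation, heat and retinol metabolism. Fabp4, which encodes a fatty acid carrier and not a droplet coat protein, is counted with the droplet genes. The filter on low counts kept 38 of the 39 genes. The gene left out was Ucp1, which encodes the heat-producing uncoupling protein of brown fat.

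Whole skin was sequenced from 8-week-old BALB/c mice in 4 groups of 3 biological samples, with 1 library per sample. Control mice received vehicle in the shaved back skin, and LL37 mice received the human cathelicidin peptide LL37 there, which produces a rosacea-like dermatitis within 2 days. The control + RAPA and LL37 + RAPA groups were in addition given rapamycin (RAPA), a drug that blocks mTORC1 kinase activity. Both intraperitoneal and topical RAPA are described for this model, and the route for the sequenced mice is not given in the sources used here. The comparisons ask how the peptide changes these genes and how RAPA changes them in injected and in vehicle-treated skin.

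White fat cells lie beneath the dermis of mouse skin and hold triglyceride in a single large droplet coated by perilipins and CIDE proteins. The nuclear receptor PPARγ, together with C/EBPα, switches on the genes that take up fatty acid, bind it to glycerol and guard the droplet, whereas adrenergic signals release the fatty acid again through the lipases ATGL, HSL and MGL. Fatty acids are also made from citrate by ACLY, acetyl-CoA carboxylase and fatty acid synthase, a route that sebaceous glands of the skin use heavily as well.

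RefSeq promoter windows on GRCm38.p6 were at hand for 28 of the 39 genes, with 39 annotated starts, and the 250 bases before each start were searched on both strands. They are shown for 3 genes of the droplet programme that hold a C/EBP-type match, TTGCNNAA, in capitals, and for Fasn, a lipogenesis gene without that match, in which capitals mark CCAAT. The Plin1 stretch (chr7:79732904-79733026, minus strand) stops after 123 bases, where an annotated exon begins, and a second match in its window lies inside that exon. The Cidec stretch (chr6:113434765-113435014, minus strand) precedes the second of 2 starts and the Pparg stretch (chr6:115421816-115422065, plus strand) the last of 3, so that both lie within the gene. The Fasn stretch (chr11:120824548-120824797, minus strand) lies outside any annotated exon.
Plin1: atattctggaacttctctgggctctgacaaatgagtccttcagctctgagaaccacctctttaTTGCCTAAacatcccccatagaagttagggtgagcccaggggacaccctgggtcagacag
Cidec: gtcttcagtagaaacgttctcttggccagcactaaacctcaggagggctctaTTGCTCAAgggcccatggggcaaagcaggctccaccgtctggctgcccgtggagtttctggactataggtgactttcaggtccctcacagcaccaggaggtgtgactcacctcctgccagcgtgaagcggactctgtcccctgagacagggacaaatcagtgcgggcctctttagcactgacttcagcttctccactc
Pparg: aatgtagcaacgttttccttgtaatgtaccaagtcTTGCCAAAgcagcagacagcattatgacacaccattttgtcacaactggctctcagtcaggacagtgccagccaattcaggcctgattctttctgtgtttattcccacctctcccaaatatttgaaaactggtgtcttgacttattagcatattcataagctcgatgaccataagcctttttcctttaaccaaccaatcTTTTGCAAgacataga
Fasn: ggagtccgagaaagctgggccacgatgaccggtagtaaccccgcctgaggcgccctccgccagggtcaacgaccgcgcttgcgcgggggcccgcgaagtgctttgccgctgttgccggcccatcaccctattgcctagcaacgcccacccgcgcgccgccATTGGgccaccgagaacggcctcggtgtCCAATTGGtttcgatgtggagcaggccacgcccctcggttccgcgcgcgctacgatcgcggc
The C/EBP-type letters were present in 4 of the 39 member windows (10.3%, in Cidec, Plin1, Pparg and Retsat) and in 9.56% of all 32851 windows. CCAAT was present in 12 of the member windows (30.8%) against 33.8% of all, and some of its Fasn matches overlap. The E-box CACGTG was found before Lipe, Mgll and Pcx (7.69% against 6.02%), the sterol response element TCACNCCAC before Acsl1 (2.56% against 1.05%), and the PPAR direct repeat of type DR1 before 0 of the members (0.0335% of all windows). These letters are a description of the windows and not of binding.

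The libraries held between 15734559 and 23271784 counts, and levels are given as CPM, each count divided by its library's TMM-scaled size. On this scale 3 counts were worth 0.123 to 0.184 CPM, a limit that covers counting error only. LL37 replicate 3 stood apart from the other LL37 libraries. Summed over 15 skeletal muscle markers it reached 713 CPM, against 21.8 and 23.4 CPM in replicates 1 and 2, its 6 neutrophil markers summed to 247 CPM against 1738 and 2422 CPM, and its 6 adipocyte markers were the highest of the group. Values of the members without it are given below wherever it changed a call or moved a called fold change by more than 1.5 times.

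LL37 lowered most of the storage genes, and RAPA raised most of those in LL37 skin. Of the 38 tested members, 22 had lower levels in LL37 than in control skin and 0 had higher ones (edgeR quasi-likelihood test, Benjamini-Hochberg adjusted p under 0.05 and absolute log2 fold change above 1), while 10.8% of all 17993 genes tested were lower and 8.73% were higher. In LL37 + RAPA against LL37, 20 members were higher and 0 lower, beside 5.8% and 4.33% of all genes. The median log2 fold change of the members was -1.24 in the first comparison and 1.37 in the second, where the medians of all genes were 0.00. In whole skin, fewer fat cells and less of these RNAs per fat cell cannot be told apart. The summed skeletal muscle markers differed as well, from 33251 to 48198 CPM in control and from 21.8 to 713 CPM in LL37. Whether the samples held the same layers of tissue was not tested. Both comparisons contain the same LL37 libraries, so that their values are given side by side and not as independent results. DESeq2 gave 22 and 20 members as well and 0 in the opposite directions, and leaving out LL37 replicate 3 gave 24 and 22. Over all genes, 1946 were lower in LL37 and 1044 higher with RAPA. These counts were 1946 and 1106 with DESeq2, and 2352 and 1634 without LL37 replicate 3.

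Without the limit on the fold change, 28 members were lower in LL37 (21.6% of all genes) and 31 were higher in LL37 + RAPA than in LL37 (12.4%). All 3 LL37 libraries lay below all 3 control libraries for 27 members (25.9% of all genes), and all 3 LL37 + RAPA libraries lay above all 3 LL37 libraries for 33 (20.7%). The fitted difference was below 0 for 37 of 38 members in LL37 against control, the exception being Acaca at 0.06, and above 0 for 38 of 38 in LL37 + RAPA against LL37. Members were at 5.19% to 105% of their control mean in LL37, with a median of 42.4% and 23 members below 50%. In LL37 + RAPA, they were at 24.7% to 216%, with a median of 107%.

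**Figure D1:**
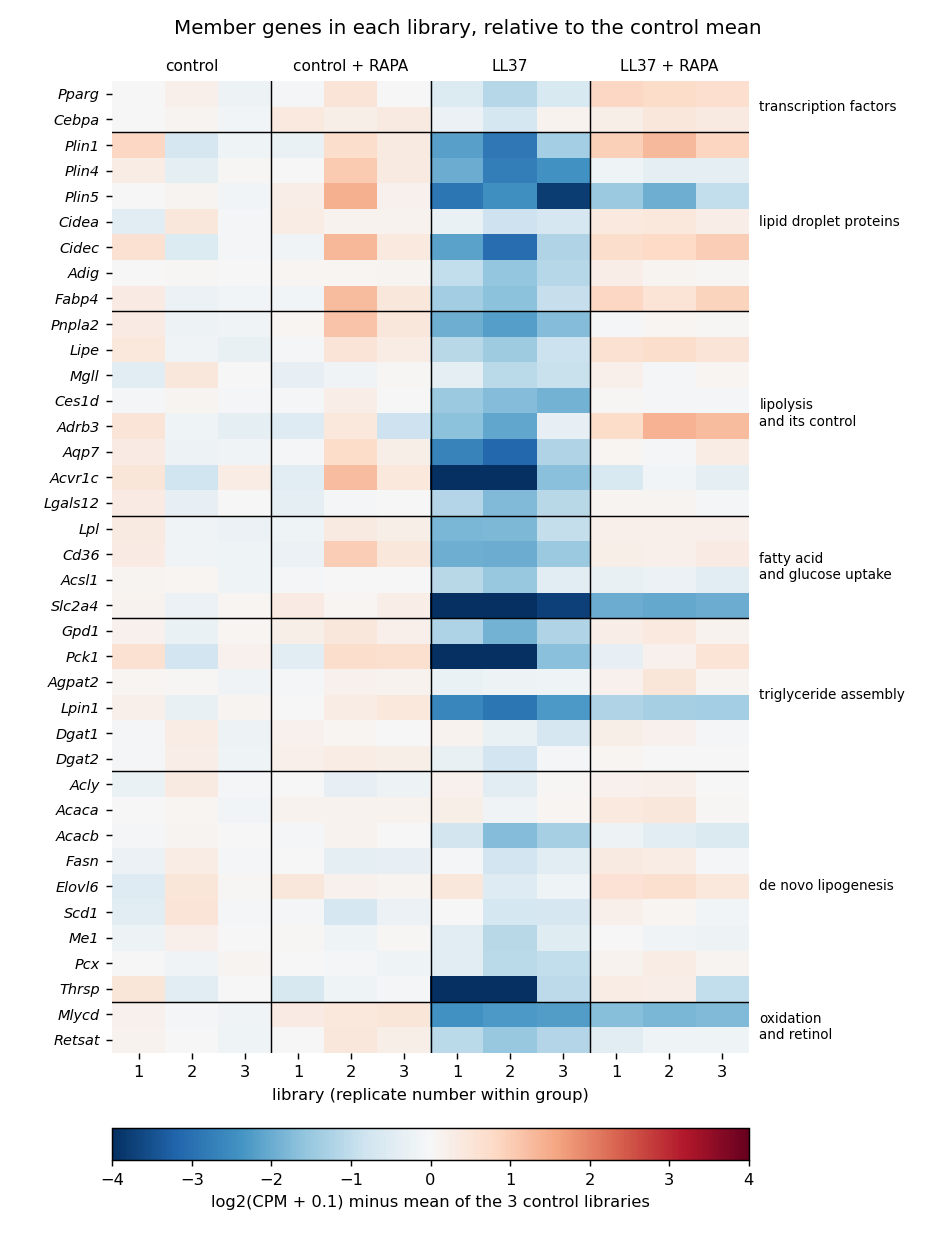
Each row is 1 of the 38 tested members, each column 1 of the 12 libraries, and the colour gives log2(CPM + 0.1) minus the mean of the 3 control libraries, from -4 (blue) to 4 (red). The LL37 columns are blue for the droplet, lipolysis and uptake genes and paler for de novo lipogenesis, and the LL37 + RAPA columns stay blue mainly for Plin5, Slc2a4, Lpin1 and Mlycd.

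Of the 2 transcription factors, Pparg was called with RAPA and Cebpa in neither comparison. Pparg (ENSMUSG00000000440, chr6:115360951-115490399 on GRCm38, the build of all positions given) encodes PPARγ, the receptor required for fat cell formation. Pparg was at 26.8, 30.4 and 23.3 CPM in the control libraries and at 25.00, 38.2 and 27.1 CPM in control + RAPA. It was at 18.2, 11.9 and 17.5 CPM in LL37 and 47.7, 44.5 and 42.6 CPM in LL37 + RAPA. The LL37 libraries lay below all others and the LL37 + RAPA libraries above all others. Against control, the LL37 difference stayed under the fold limit (log2 fold change -0.75 ± 0.19 (SE), adjusted p = 0.00741), whereas LL37 + RAPA was higher than LL37 (1.50 ± 0.19 (SE), adjusted p = 0.00129). Cebpa (ENSMUSG00000034957, chr7:35119293-35121928), which encodes C/EBPα, was at 718, 761 and 656 CPM in control, 921, 828 and 919.9 CPM in control + RAPA, 600.4, 438 and 788 CPM in LL37 and 827, 979 and 918 CPM in LL37 + RAPA. Its LL37 and control libraries overlapped (-0.23 ± 0.17 (SE), adjusted p = 0.326), and LL37 + RAPA exceeded LL37 by less than the fold limit (0.58 ± 0.18 (SE), adjusted p = 0.034).

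Among the 7 droplet genes, with the carrier Fabp4 included, 6 were lower in LL37 and the same count was higher with RAPA. Plin1 (ENSMUSG00000030546, chr7:79720218-79732903) encodes perilipin 1, the droplet coat that gates lipolysis. Plin1 was at 169, 60.2 and 85.3 CPM in the control libraries and at 78.7, 156 and 123 CPM in control + RAPA. It was at 21.01, 13.1 and 36.8 CPM in LL37 and 184, 232 and 172 CPM in LL37 + RAPA. LL37 lay below every other library (-2.14 ± 0.43 (SE), adjusted p = 0.00197), and with RAPA all 3 libraries exceeded the highest control library (3.05 ± 0.44 (SE), adjusted p = 0.00167 against LL37). Plin4 (ENSMUSG00000002831, chr17:56100591-56109803), a perilipin of small droplets, was at 378, 239.9 and 319 CPM in control and 308, 636 and 396 CPM in control + RAPA. It was at 76.9, 45.1 and 56.7 CPM in LL37 and 271, 237 and 236 CPM in LL37 + RAPA. Its LL37 libraries again lay below all others (-2.39 ± 0.28 (SE), adjusted p = 6.18e-05), and its LL37 + RAPA libraries overlapped the control range (2.06 ± 0.27 (SE), adjusted p = 0.00146 against LL37).

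Plin5 (ENSMUSG00000011305, chr17:56111601-56117596), a perilipin of tissues that burn fat, was at 13.2, 14.1 and 12.2 CPM in control and 15.8, 35.5 and 14.9 CPM in control + RAPA. It was at 1.69, 2.33 and 0.848 CPM in LL37 and 4.60, 3.32 and 6.54 CPM in LL37 + RAPA. The LL37 + RAPA libraries lay between the LL37 and the control libraries without overlap (-3.04 ± 0.43 (SE), adjusted p = 0.000218 for LL37 against control and 1.59 ± 0.43 (SE), adjusted p = 0.0209 for LL37 + RAPA against LL37). The second call was lost without LL37 replicate 1 or without LL37 + RAPA replicate 1 or 3, at adjusted p = 0.0655, 0.0522 and 0.0756. Fabp4 (ENSMUSG00000062515, chr3:10204088-10208576), the fatty acid carrier of fat cells, was at 870.3, 589.6 and 648 CPM in control and 643, 1681 and 943 CPM in control + RAPA. It was at 265, 224 and 362 CPM in LL37 and 1218, 1002 and 1278 CPM in LL37 + RAPA. All LL37 libraries lay below the others (-1.31 ± 0.31 (SE), adjusted p = 0.00521), and all LL37 + RAPA libraries above the controls (2.04 ± 0.31 (SE), adjusted p = 0.00206 against LL37). Adig (ENSMUSG00000044405, chr2:158502612-158508198), or adipogenin, was at 18.98, 20.04 and 18.97 CPM in control and 20.5, 20.4 and 21.1 CPM in control + RAPA, the narrowest ranges of the droplet genes. It was at 9.69, 6.62 and 8.71 CPM in LL37 and 23.2, 20.8 and 20.1 CPM in LL37 + RAPA. Those LL37 values lay below all others (-1.21 ± 0.13 (SE), adjusted p = 4.7e-05, and 1.35 ± 0.13 (SE), adjusted p = 0.000717 with RAPA).

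The CIDE proteins fuse droplets. Cidec was at 358, 163 and 227 CPM in control, 53.1, 28.8 and 103 CPM in LL37 and 383, 408 and 467 CPM in LL37 + RAPA, without overlap between LL37 and either other group (-2.01 ± 0.47 (SE), adjusted p = 0.0049, and 2.77 ± 0.48 (SE), adjusted p = 0.00334 with RAPA). Without LL37 replicate 3, these differences were -2.57 and 3.36. Cidea was at 79.04, 146 and 102 CPM in control, 88.3, 59.01 and 66.2 CPM in LL37 and 137, 140.1 and 127 CPM in LL37 + RAPA. Cidea passed the adjusted p but not the fold limit in both comparisons (-0.61, adjusted p = 0.0265, and 0.92, adjusted p = 0.00809 with RAPA). Its LL37 and control libraries overlapped, whereas all LL37 + RAPA libraries lay above LL37. It was called with RAPA when LL37 replicate 1 was left out (1.11).

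**Figure D2:**
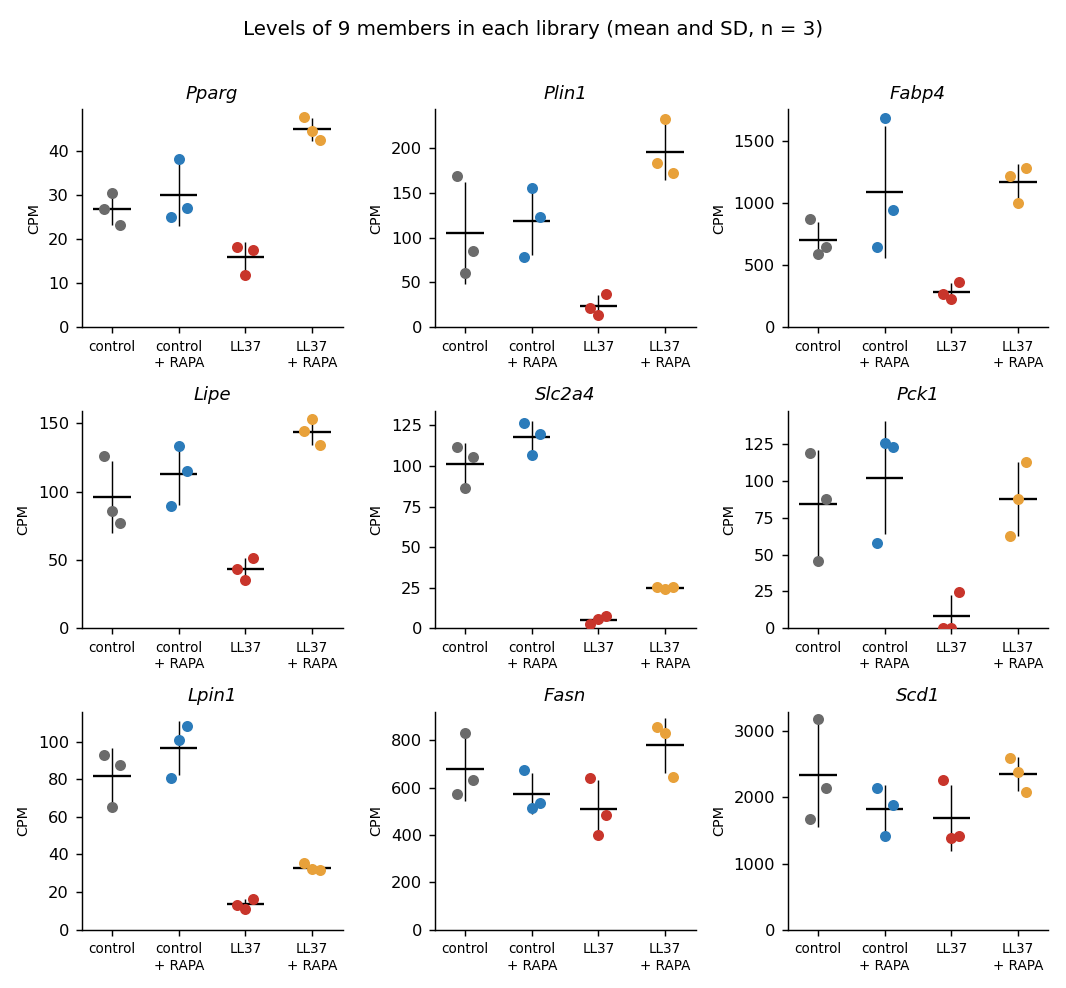
Points are CPM of 9 members in each of the 12 libraries on linear axes from 0, with the mean (horizontal bar) and SD (vertical bar) of 3 libraries per group. LL37 points lie lowest for Pparg, Plin1, Fabp4, Lipe, Slc2a4, Pck1 and Lpin1, the LL37 + RAPA points of Slc2a4 and Lpin1 stay below control, and LL37 and control points overlap for Fasn and Scd1.

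Lipolysis genes fell in LL37 in 6 of 8 cases, and 7 of 8 were higher with RAPA. Pnpla2 (ENSMUSG00000025509, chr7:141455198-141460743) encodes ATGL, which takes the first fatty acid off triglyceride. Pnpla2 was at 434, 301 and 311 CPM in the control libraries and at 365, 756 and 466 CPM in control + RAPA. It was at 89.1, 75.2 and 104 CPM in LL37 and 328, 363 and 356 CPM in LL37 + RAPA. LL37 libraries lay below all others (-1.96 ± 0.24 (SE), adjusted p = 0.000105), and LL37 + RAPA reached the control range (1.96 ± 0.24 (SE), adjusted p = 0.00124 against LL37). Lipe (ENSMUSG00000003123, chr7:25379527-25398710) encodes hormone-sensitive lipase, the next enzyme in the chain. Lipe was at 126, 85.8 and 76.9 CPM in the control libraries and at 89.4, 133 and 115 CPM in control + RAPA. It was at 43.4, 35.2 and 51.6 CPM in LL37 and 144, 153 and 134 CPM in LL37 + RAPA. The LL37 libraries were the lowest (-1.14 ± 0.20 (SE), adjusted p = 0.000964), and the LL37 + RAPA libraries exceeded all 3 controls (1.73 ± 0.20 (SE), adjusted p = 0.00104 against LL37). Without control replicate 1 or LL37 replicate 2, the Lipe difference from control dropped under the fold limit, to -0.90 and -0.98.

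Ces1d (ENSMUSG00000056973, chr8:93166068-93197838), a carboxylesterase that hydrolyses triglyceride, was at 109, 122 and 111 CPM in control and 107, 138 and 116 CPM in control + RAPA. It was at 40.9, 34.5 and 30.4 CPM in LL37 and 117, 109.5 and 111 CPM in LL37 + RAPA. The LL37 libraries lay below all others and LL37 + RAPA overlapped control (-1.70 ± 0.12 (SE), adjusted p = 2.72e-06, and 1.68 ± 0.12 (SE), adjusted p = 0.000323 with RAPA). Ces1d has close tandem copies and an overlapping gene on its strand, so reads could be shared between them. Lgals12 (ENSMUSG00000024972, chr19:7596660-7607193), a galectin of the droplet surface, was at 32.2, 20.4 and 25.8 CPM in control and 19.6, 24.5 and 25.96 CPM in control + RAPA. It was at 11.3, 7.41 and 11.9 CPM in LL37 and 27.9, 27.8 and 24.2 CPM in LL37 + RAPA. Its LL37 libraries were again the lowest (-1.35 ± 0.20 (SE), adjusted p = 0.000375, and 1.38 ± 0.20 (SE), adjusted p = 0.00182 with RAPA).

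Aqp7, the glycerol channel, was at 17.2, 12.05 and 12.5 CPM in control, 2.07, 1.47 and 5.93 CPM in LL37 and 14.6, 13.2 and 17.04 CPM in LL37 + RAPA (-2.11 ± 0.41 (SE), adjusted p = 0.00166, and 2.21 ± 0.41 (SE), adjusted p = 0.00422 with RAPA). Its LL37 libraries lay below the rest, and without LL37 replicate 3 the differences were -2.93 and 3.07. Acvr1c, the activin receptor ALK7 of fat cells, was near the floor in LL37, with 4, 0 and 37 counts, at 8.14, 3.28 and 7.16 CPM in control and at 3.75, 5.32 and 4.51 CPM in LL37 + RAPA (-3.14 and 2.69, or -5.65 and 5.23 without LL37 replicate 3). Its call with RAPA was lost without LL37 replicate 1 or 2 or any 1 LL37 + RAPA library (adjusted p between 0.0594 and 0.107), or with the compared groups fitted alone (0.0875). Adrb3, the β3-adrenergic receptor that starts lipolysis, was at 13.5, 8.36 and 7.27 CPM in control, 2.94, 2.14 and 7.49 CPM in LL37 and 15.5, 24.7 and 22.6 CPM in LL37 + RAPA. Its LL37 libraries overlapped control (-1.19 ± 0.46 (SE), adjusted p = 0.0538) and lay below LL37 + RAPA (2.30 ± 0.46 (SE), adjusted p = 0.00588). Without LL37 replicate 3, Adrb3 passed in both, at -1.89 and 3.04, and it also passed against control with DESeq2 (adjusted p = 0.0186), with a filter of 1 count in total (0.028) or without control + RAPA replicate 2 (0.0428). Mgll, which encodes monoacylglycerol lipase, was at 685, 1258 and 907 CPM in control, 720.2, 437 and 498 CPM in LL37 and 1053, 897 and 975 CPM in LL37 + RAPA. Mgll passed the adjusted p but not the fold limit in both comparisons (-0.78, adjusted p = 0.0152, and 0.82, adjusted p = 0.0228 with RAPA). Its LL37 and control libraries overlapped, whereas all LL37 + RAPA libraries lay above LL37. It was called in both without LL37 replicate 1 (-1.02 and 1.06).

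Of the 4 uptake genes, 3 were lower in LL37 and higher with RAPA. Slc2a4 (ENSMUSG00000018566, chr11:69942539-69948188) encodes GLUT4, the insulin-responsive glucose transporter of fat and muscle, and had the lowest LL37 level relative to control of all members. Slc2a4 was at 112, 86.2 and 106 CPM in the control libraries and at 127, 107 and 119.6 CPM in control + RAPA. It was at 2.78, 5.58 and 7.40 CPM in LL37 and 25.2, 23.99 and 25.6 CPM in LL37 + RAPA. The LL37 + RAPA libraries lay between the LL37 and control libraries with no overlap on either side (-4.26 ± 0.26 (SE), adjusted p = 1.03e-06, and 2.24 ± 0.25 (SE), adjusted p = 0.00101 with RAPA). Lpl (ENSMUSG00000015568, chr8:68880491-68907448), the lipase that frees fatty acid from circulating lipoproteins, was at 515, 358 and 340.4 CPM in control and 351, 507 and 466 CPM in control + RAPA. It was at 111, 115 and 205 CPM in LL37 and 454, 459.5 and 459 CPM in LL37 + RAPA. LL37 lay below all other libraries (-1.49 ± 0.24 (SE), adjusted p = 0.000571), and LL37 + RAPA within the control range (1.67 ± 0.24 (SE), adjusted p = 0.00173 against LL37). Cd36 (ENSMUSG00000002944, chr5:17781690-17888801), a fatty acid translocase, was at 418, 303 and 298 CPM in control and 288, 667 and 457 CPM in control + RAPA. It was at 86.6, 84.9 and 121 CPM in LL37 and 393, 388 and 420.4 CPM in LL37 + RAPA. The LL37 libraries were the lowest (-1.80 ± 0.26 (SE), adjusted p = 0.000299, and 2.04 ± 0.27 (SE), adjusted p = 0.00145 with RAPA). Acsl1, which activates fatty acids with CoA, was at 299, 296 and 245 CPM in control, 128, 97.4 and 204 CPM in LL37 and 225, 238 and 204 CPM in LL37 + RAPA. Its LL37 libraries lay below control, but the highest of them (203.95 CPM) all but tied with the lowest LL37 + RAPA library (203.98 CPM). Acsl1 stayed under the fold limit in both comparisons (-0.97 and 0.63). It passed against control without control replicate 3 or LL37 replicate 3 (-1.06 and -1.28).

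Triglyceride assembly split into 3 genes that fell in LL37 and 3 that were not called. Gpd1 (ENSMUSG00000023019, chr15:99717515-99725005), which makes glycerol 3-phosphate, was at 181, 133 and 168 CPM in control and 187, 218 and 182 CPM in control + RAPA. It was at 67.5, 42.6 and 68.9 CPM in LL37 and 191, 210.3 and 177 CPM in LL37 + RAPA. LL37 was below all others and LL37 + RAPA overlapped control (-1.43 ± 0.18 (SE), adjusted p = 0.000106, and 1.69 ± 0.18 (SE), adjusted p = 0.000932 with RAPA). Lpin1 (ENSMUSG00000020593, chr12:16535669-16610966), the phosphatidate phosphatase lipin 1, was at 92.9, 65.4 and 87.5 CPM in control and 80.7, 101 and 108 CPM in control + RAPA. It was at 13.2, 10.8 and 16.5 CPM in LL37 and 35.4, 32.1 and 31.7 CPM in LL37 + RAPA. The LL37 + RAPA libraries lay between LL37 and control without overlap (-2.60 ± 0.18 (SE), adjusted p = 1.92e-06, and 1.29 ± 0.18 (SE), adjusted p = 0.00156 with RAPA).

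Pck1, the glyceroneogenic enzyme PEPCK, was at 119, 45.6 and 87.6 CPM in control, 0.599, 0.306 and 24.5 CPM in LL37 and 62.6, 87.7 and 113 CPM in LL37 + RAPA. Replicate 3 carried nearly all of the LL37 signal (-3.27 ± 1.00 (SE), adjusted p = 0.021, and 3.33 ± 1.00 (SE), adjusted p = 0.0332 with RAPA), and without it the differences were -7.46 and 7.56. The Pck1 call against control was lost without control replicate 1 (adjusted p = 0.0587), and the call with RAPA without LL37 replicate 1 or 2 or any 1 LL37 + RAPA library (0.062 to 0.0854). Fitting the compared groups alone ended both Pck1 calls (0.0954 and 0.115). Agpat2, Dgat1 and Dgat2 encode acyltransferases of the pathway, of which the DGAT enzymes add the last fatty acid. Agpat2 was at 29.6, 28.96 and 24.97 CPM in control and 23.1, 24.02 and 24.9 CPM in LL37. In LL37 + RAPA it was at 31.2, 38.6 and 30.1 CPM. Its LL37 libraries lay just below control, and its LL37 + RAPA libraries above both groups. The adjusted p was 0.172 for LL37 against control and 0.0159 for LL37 + RAPA against LL37, both under the fold limit. Dgat1 was at 101, 131 and 94.3 CPM in control, 119, 88.5 and 67.3 CPM in LL37 and 126, 120.2 and 104 CPM in LL37 + RAPA. Dgat2 was at 247, 319 and 231 CPM in control, 215, 155 and 257 CPM in LL37 and 280.4, 266 and 264 CPM in LL37 + RAPA. LL37 and control libraries overlapped for Dgat1 and Dgat2, and none of these genes was called (-0.21, -0.25 and -0.34 in LL37 against control, and 0.47, 0.35 and 0.37 in LL37 + RAPA against LL37).

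In de novo lipogenesis 2 of 9 genes were lower in LL37 and 0 were called with RAPA, although 4 of the 9 passed the adjusted p without the fold limit in each comparison. Fasn (ENSMUSG00000025153, chr11:120805846-120824547) encodes fatty acid synthase. Fasn was at 575, 830.2 and 632 CPM in the control libraries and at 673, 516 and 536 CPM in control + RAPA. It was at 642, 398 and 486 CPM in LL37 and 858, 832 and 646 CPM in LL37 + RAPA. The LL37 and control libraries overlapped (-0.42 ± 0.20 (SE), adjusted p = 0.113), and all LL37 + RAPA libraries exceeded the LL37 ones by a small amount (0.61 ± 0.20 (SE), adjusted p = 0.0434). Scd1 (ENSMUSG00000037071, chr19:44394455-44407879), the stearoyl-CoA desaturase, was at 1665, 3189.8 and 2136 CPM in control and 2144, 1420.3 and 1891 CPM in control + RAPA. It was at 2266, 1378 and 1412 CPM in LL37 and 2596, 2378 and 2087 CPM in LL37 + RAPA. All 4 groups overlapped (-0.47 ± 0.26 (SE), adjusted p = 0.17 in LL37 and 0.48 ± 0.26 (SE), adjusted p = 0.195 with RAPA). Pcx (ENSMUSG00000024892, chr19:4510472-4621752), pyruvate carboxylase, was at 125, 113 and 135 CPM in control and 123, 117 and 110.0 CPM in control + RAPA. It was at 90.9, 58.9 and 62.98 CPM in LL37 and 136, 151 and 135 CPM in LL37 + RAPA. Its LL37 libraries lay below all others but stayed within the fold limit in both comparisons (-0.81 ± 0.15 (SE), adjusted p = 0.00106, and 0.99 ± 0.15 (SE), adjusted p = 0.0018 with RAPA). Without LL37 replicate 1, Pcx passed in both (-1.03 and 1.21), and without LL37 + RAPA replicate 1 or 3 it passed with RAPA (1.01 and 1.02). It also passed with RAPA by library size alone (1.03), with a filter of 1 count in total or with a replicate block (1.00 in both).

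Acacb, the mitochondrial acetyl-CoA carboxylase, was at 457, 517 and 471 CPM in control, 288, 144 and 191 CPM in LL37 and 419, 349.7 and 325 CPM in LL37 + RAPA. All LL37 libraries lay below both other groups, and Acacb was lower in LL37 (-1.21 ± 0.21 (SE), adjusted p = 0.000739) and short of the fold limit with RAPA (0.81). Its first call fell under that limit without LL37 replicate 2 (-0.97), and the RAPA difference passed it without LL37 replicate 1 (1.13). Thrsp, or Spot 14, an activator of lipogenesis, was at 28.6, 14.8 and 20.2 CPM in control, 0.109, 0.306 and 9.75 CPM in LL37 and 25.4, 24.5 and 10.3 CPM in LL37 + RAPA. As for Pck1, LL37 replicate 3 held most of the signal (-2.59 ± 0.90 (SE), adjusted p = 0.0373, and 2.51 ± 0.90 (SE), adjusted p = 0.0626 with RAPA), and without it the differences were -6.64 and 6.59, both called. The Thrsp difference with RAPA also passed with a filter of 1 count in total (adjusted p = 0.024). The Thrsp call against control was also lost with DESeq2 (adjusted p = 0.0564), with the compared groups fitted alone (0.13) and when any of 9 libraries was left out in turn (0.0501 to 0.10).

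The other lipogenesis genes, Acly, Acaca, Elovl6 and Me1, were called in neither comparison. The cytosolic enzymes ACLY and ACACA feed fatty acid synthase, ELOVL6 lengthens its product and malic enzyme supplies NADPH. Acly was at 292, 451 and 338 CPM in control, 399, 263 and 369 CPM in LL37 and 399.6, 411 and 354 CPM in LL37 + RAPA. Acaca was at 75.8, 79.00 and 68.9 CPM in control, 88.1, 67.04 and 78.7 CPM in LL37 and 96.7, 101 and 76.99 CPM in LL37 + RAPA. Elovl6 was at 458, 925 and 680.0 CPM in control, 908, 464 and 587 CPM in LL37 and 988, 1021 and 879 CPM in LL37 + RAPA. For these 3 genes the LL37 libraries overlapped control, with differences of -0.07, 0.06 and -0.07 whose sign depended on single libraries, and the differences with RAPA were 0.17, 0.24 and 0.56. Me1 was at 198, 258 and 228 CPM in control, 164, 105 and 161 CPM in LL37 and 230.0, 206 and 196 CPM in LL37 + RAPA. Its LL37 libraries lay below both other groups by less than the fold limit (-0.67 ± 0.16 (SE), adjusted p = 0.00649, and 0.55 with RAPA).

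Outside storage and synthesis, Mlycd (ENSMUSG00000074064, chr8:119394878-119411102) encodes malonyl-CoA decarboxylase, which lifts the block on fatty acid oxidation. Mlycd was at 93.5, 80.03 and 74.8 CPM in the control libraries and at 103, 110.4 and 115 CPM in control + RAPA. It was at 15.2, 16.7 and 17.5 CPM in LL37 and 25.1, 23.01 and 24.3 CPM in LL37 + RAPA. LL37 and LL37 + RAPA lay far below control without overlap (-2.33 ± 0.10 (SE), adjusted p = 1.63e-07), and the RAPA difference was under the fold limit (0.55 ± 0.10 (SE), adjusted p = 0.00442). Retsat (ENSMUSG00000056666, chr6:72598475-72608425), a retinol saturase induced in fat cells, was at 49.1, 45.4 and 40.04 CPM in control and 44.7, 61.5 and 52.6 CPM in control + RAPA. It was at 20.95, 15.6 and 19.7 CPM in LL37 and 32.6, 39.7 and 39.5 CPM in LL37 + RAPA. The LL37 libraries were the lowest (-1.26 ± 0.15 (SE), adjusted p = 8.06e-05), and the RAPA difference stopped just short of the limit (0.99 ± 0.15 (SE), adjusted p = 0.00193). It passed without LL37 replicate 1 or 3 or LL37 + RAPA replicate 1 (1.08, 1.03 and 1.08), and also by library size alone (1.03) or with a filter of 1 count in total or 10 in every library (1.01 and 1.00). Ucp1 was listed with 9, 6 and 2 counts in control, 2, 1 and 5 in control + RAPA, 2, 1 and 3 in LL37 and 11, 4 and 4 in LL37 + RAPA. These counts, of at most 11 per library, were below the filter and were not tested.

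On a scale of CPM per kilobase of the longest coding transcript, levels can be set side by side. In control skin, Fabp4 ranked first at 784, followed by Scd1 at 482, Cebpa at 271, Mgll at 238 and Cidec at 145 CPM per kilobase. The lowest tested member was Acvr1c at 0.676, and Ucp1 stood at 0.183. These 5 leading genes held the same order in LL37 + RAPA, whereas Plin1 moved from rank 23 to 14 and Slc2a4 from 21 to 31. In LL37 the order differed, with Scd1 at rank 1, Fabp4 at 2 and Cidec at 13. As a share of all counts, the members took 1.05% ± 0.107 (SD, n = 3) in control, 1.08% ± 0.122 in control + RAPA, 0.659% ± 0.131 in LL37 and 1.27% ± 0.0405 in LL37 + RAPA. De novo lipogenesis made up 0.485% in control and 0.380% in LL37, and the droplet genes, Fabp4 included, 0.147% and 0.0527%.

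With RAPA, most members of LL37 skin were no longer called against control. LL37 + RAPA had 4 members lower and 0 higher, where 4.35% and 2.15% of all genes were called. The 4 were Plin5 (-1.45 ± 0.38 (SE), adjusted p = 0.0248), Slc2a4 (-2.02 ± 0.23 (SE), adjusted p = 0.000171), Lpin1 (-1.31 ± 0.17 (SE), adjusted p = 0.000418) and Mlycd (-1.78 ± 0.10 (SE), adjusted p = 2.83e-06). The Plin5 call is the one with the fewest counts behind it, between 81 and 145 per LL37 + RAPA library. Pparg passed the adjusted p in the other direction, at 0.74 ± 0.18 (SE), adjusted p = 0.0197, below the fold limit. DESeq2 called 0 members higher, beside 475 of all genes tested. Without the fold limit, 1 member was higher and 4 were lower (5.03% and 9.01% of all genes). Unadjusted p was under 0.05 for 10 members (27.4% of all genes). The LL37 + RAPA libraries lay above all controls for 9 members and below all controls for 7 (16.9% and 19.5% of all genes). The members above were Pparg, Cebpa, Plin1, Cidec, Adig, Fabp4, Lipe, Adrb3 and Agpat2. Those below were Plin5, Acsl1, Slc2a4, Lpin1, Acacb, Mlycd and Retsat. Both lists were picked out after their values were seen.

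**Figure D3:**
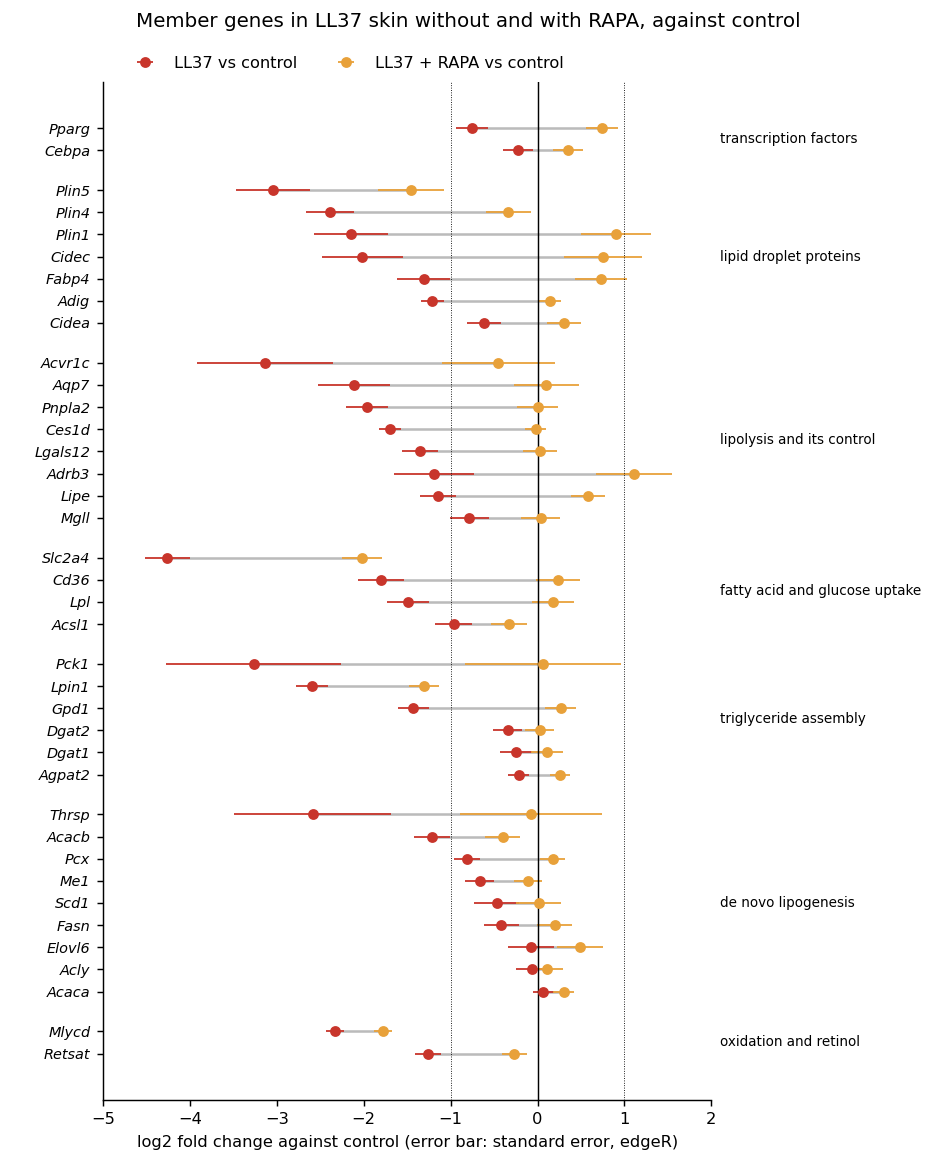
Points are fitted log2 fold changes against control of the 38 tested members in LL37 (red) and LL37 + RAPA (orange), with standard errors from edgeR as bars and dotted lines at -1 and 1. Red points lie left of 0 for 37 members, from -4.26 for Slc2a4, and orange points lie between -2.02 and 1.11.

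Taking both LL37 comparisons together, 18 members were lower in LL37 and higher with RAPA, and 3 of these (Plin5, Slc2a4 and Lpin1) were also lower than control in LL37 + RAPA. Of all genes tested, 833 (4.63%) were called in both ways and 291 (1.62%) in all 3. Acacb, Thrsp, Mlycd and Retsat were lower in LL37 only, Pparg and Adrb3 passed only with RAPA, and 14 members were called in neither. Being called in 1 comparison and not the other is no test of a difference.

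In vehicle-treated skin, no member was called between control + RAPA and control by edgeR, and 0 of 17993 genes were (0.0%). Unadjusted p was under 0.05 for 2 members, Mlycd and Pnpla2, and for 8.65% of all genes. DESeq2 called 0 members, whereas over all genes it called 2 higher and 50 lower. The median member difference was 0.18. All 3 control + RAPA libraries lay above all 3 controls for 6 members (8.25% of all genes), namely Mlycd, Plin5, Cebpa, Gpd1, Acaca and Adig, and below them for 0 (7.42%). For Mlycd the difference was 0.40 (adjusted p = 0.386) and for Plin5 0.75 (adjusted p = 0.605).

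The interaction tests whether the RAPA difference was larger in LL37 than in vehicle-treated skin. It was called for 13 members, all in the direction of a larger RAPA difference in LL37 skin, and for 0 in the other, beside 1.73% and 0.65% of all genes. By size these were Plin1 (2.86 ± 0.59 (SE), adjusted p = 0.031), Slc2a4 (2.02 ± 0.33 (SE), adjusted p = 0.0211), Ces1d (1.60), Cd36 (1.57), Lpl (1.55), Plin4 (1.54), Lgals12 (1.54), Lipe (1.50), Gpd1 (1.41), Pparg (1.33 ± 0.26 (SE), adjusted p = 0.0293), Adig (1.26), Pcx (1.08) and Lpin1 (1.05). Their adjusted p-values lay between 0.0142 for Ces1d and 0.0481 for Plin4. The count was 1 without control replicate 1, LL37 + RAPA replicate 1 or control + RAPA replicate 3, and 21 without LL37 replicate 3, whereas DESeq2 gave 18. Over all genes, 312 were called higher with all libraries, and 16, 2 and 10 in the fits that gave 1 member. Without LL37 replicate 3 that count was 1271, and with DESeq2 it was 729. The Mlycd interaction was 0.15 ± 0.14 (SE), adjusted p = 0.579.

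Libraries of 1 group were not alike in these genes. Among controls, replicate 1 was the highest for 21 members, including 4 of 4 uptake genes and 6 of 8 lipolysis genes, and for 6 of 6 adipocyte markers. Replicate 2 was the highest for 7 of 9 lipogenesis genes, and for 5 of 8 sebocyte markers. In LL37, replicate 3 was the highest for 4 of 4 uptake genes, 6 of 8 lipolysis genes and 6 of 6 adipocyte markers, and replicate 1 for 8 of 9 lipogenesis genes and 7 of 8 sebocyte markers. In control + RAPA, replicate 2 led for 21 members and for 6 of 6 adipocyte markers. The part of these cell types in the spread was not tested.

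Other genes of lipid metabolism were taken from a written list of 72, of which 69 were tested. In LL37 against control 2 were higher and 18 lower, with a median of -0.32, and with RAPA 11 were higher and 0 lower, with a median of 0.28. Without LL37 replicate 3 these counts were 5 and 18, and 15 and 2. Mlxipl, which encodes the glucose-sensing lipogenic factor ChREBP, was at 58.1, 40.8 and 47.04 CPM in control, 1.42, 2.02 and 5.18 CPM in LL37 and 21.1, 17.5 and 16.6 CPM in LL37 + RAPA. Its groups did not overlap (-4.05 ± 0.36 (SE), adjusted p = 1.09e-05, and 2.65 ± 0.35 (SE), adjusted p = 0.00152 with RAPA), and without LL37 replicate 3 the differences were -4.80 and 3.43. Pdk4, a kinase that spares glucose when fat is burned, was at 841, 733 and 713 CPM in control, 10.3, 4.66 and 15.6 CPM in LL37 and 78.8, 42.3 and 60.3 CPM in LL37 + RAPA (-6.21 ± 0.49 (SE), adjusted p = 4.41e-06, and 2.56 ± 0.42 (SE), adjusted p = 0.00263 with RAPA). Srebf1, the sterol-regulated lipogenic factor, differed by -0.06 and 0.10, and Plin2, the perilipin found in most cells, by 0.33 and -0.08, all uncalled.

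Of the 8 fatty acid oxidation genes, 6 were lower in LL37 and 0 were higher with RAPA. Cpt1b, the muscle form of the carnitine carrier enzyme, differed from control by -3.66 ± 0.30 (SE), adjusted p = 5.69e-06, and passed with RAPA without LL37 replicate 3 (1.37). Acadvl, Acadm and Hadhb, enzymes of mitochondrial β-oxidation, differed by -1.26, -1.38 and -1.43. The genes called higher in LL37 were G0s2, an inhibitor of ATGL, at 2.25 ± 0.49 (SE), adjusted p = 0.00348, and Gk, glycerol kinase, at 1.21 ± 0.34 (SE), adjusted p = 0.0136. With RAPA, Klf15 and Ebf1, transcription factors active in fat cells, rose by 1.70 and 1.56, Slc27a1, a fatty acid transporter, by 1.25, and Irs1, the insulin receptor substrate, by 1.25.

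Adipocyte and skeletal muscle markers moved in the direction of the members, whereas the neutrophil and macrophage markers called in LL37 were higher. Of 6 endothelium markers, 1 was lower in LL37 and 0 were higher. Of 6 epidermis markers, 1 was higher and 1 lower, and of 5 tested markers of the growing hair follicle, 2 were higher and 0 lower. The 6 adipocyte markers that are not members (Adipoq, Cfd, Retn, Trarg1, Slc7a10 and Rbp4) summed to 835, 339 and 646 CPM in control, 475, 1045 and 514 CPM in control + RAPA, 137, 97.3 and 285 CPM in LL37 and 743, 719 and 624 CPM in LL37 + RAPA. All 6 were lower in LL37, by -1.29 for Retn to -2.40 for Rbp4, and 6 were higher with RAPA. Against control, 0 were called in LL37 + RAPA, with a median log2 fold change of 0.43 and unadjusted p under 0.05 for 3. Adipoq, which encodes the fat cell hormone adiponectin, differed by -2.08 ± 0.41 (SE), adjusted p = 0.00189 and, with RAPA, by 2.69 ± 0.42 (SE), adjusted p = 0.0021, or by -2.67 and 3.31 without LL37 replicate 3.

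The 15 skeletal muscle markers summed to 48198, 33251 and 42466 CPM in control, 64881, 36416 and 38542 CPM in control + RAPA, 21.8, 23.4 and 713 CPM in LL37 and 6213, 2789.6 and 4249 CPM in LL37 + RAPA. Of the 14 tested, 14 were lower in LL37, 14 were higher with RAPA and 9 were still lower than control in LL37 + RAPA. Slc2a4, Plin5, Lpin1 and Mlycd, the members still below control there, are expressed in muscle as well as in fat, and the part of muscle in their values was not tested. With the muscle markers removed before scaling, the members called were again 22 lower in LL37, 20 higher with RAPA and 4 lower in LL37 + RAPA than in control.

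The 8 sebocyte markers summed to 1379, 2586 and 2134 CPM in control, 2011, 1206 and 1828 CPM in LL37 and 2701, 2189 and 2211 CPM in LL37 + RAPA, with 1 of 8 lower in LL37 and 2 of 8 higher with RAPA. The LL37 sums overlapped control, and all 3 LL37 + RAPA sums exceeded all 3 LL37 sums. Of the 6 neutrophil markers, 5 were tested and 5 were higher in LL37, and 4 of 8 macrophage markers were higher. The part of these infiltrating cells in the members' share of each library was not tested.

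**Figure D4:**
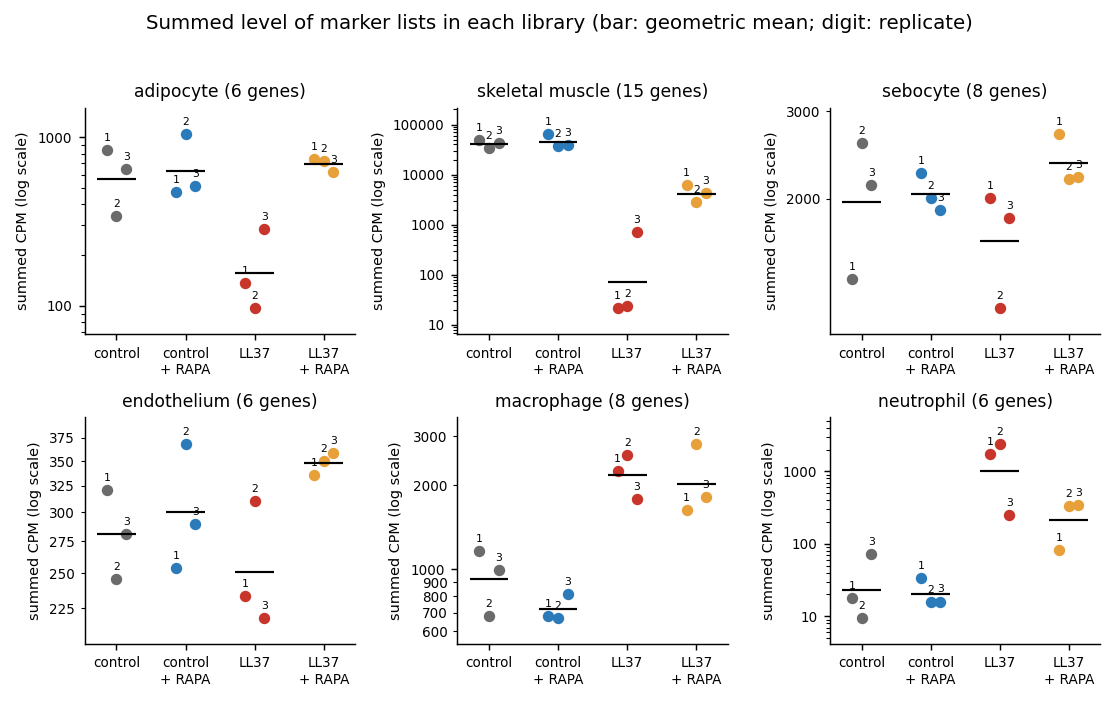
Points are the summed CPM of 6 marker lists in each library, on log axes, with a bar at the geometric mean of 3 libraries and the replicate number beside each point. Adipocyte and skeletal muscle sums are lowest in LL37, where replicate 3 lies above the other replicates, whereas the LL37 sebocyte sums overlap control and lie below those of LL37 + RAPA.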

How the data were processed

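RNA from flash-frozen skin was sequenced from TruSeq libraries on an Illumina HiSeq X instrument. The authors deposited raw read counts per Ensembl gene for each library, without normalization or pooling. The study's methods name HTSeq for counting and the submitters' processing notes name HISAT2 2.0.5, StringTie 1.3.3b, featureCounts 1.5.0-p3 and DESeq2 1.16.1 with build mm10. Which counter made the table, its strand setting and its annotation are not given in the sources used here, so reads of overlapping or antisense genes cannot be separated. Annotated genes overlap Mgll, Ces1d, Acly, Acaca, Elovl6 and Me1 on the same strand. All 12 columns carried sample names. GENCODE M21 (GRCm38) gave symbols for 52489 of 52636 identifiers, coordinates and transcript lengths.

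Counts were fitted in R 4.3.3 with edgeR 4.0.16 (all 12 libraries, TMM, filterByExpr by group, quasi-likelihood F-test), with Benjamini-Hochberg adjustment over 17993 genes. Calls required an adjusted p under 0.05 with a log2 fold change beyond 1 in either direction. Replicates are separate biological samples per the methods. Chi-square per gene between replicates was at least 12.6, so no libraries were duplicates. Alternatives were DESeq2 1.42.0 and its size factors, library size alone, removal of muscle markers, filters at 1 count in total or 10 in every library, other thresholds, the compared groups alone, a block for the replicate number, and leaving out each library. The calls were also run on simulated data with 200 genes changed per comparison. That is fewer than were called in LL37 skin, so the run does not cover shifts as wide as those seen here.

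Members and lists were chosen with earlier results of these data known. Named with full values were the 12 called members with the smallest p in each LL37 comparison, those called in the interaction, and Pparg, Cebpa, Fabp4, Plin1, Lipe, Pnpla2, Fasn, Scd1 and Ucp1. From the pathway list, the 6 called genes with the smallest p per comparison and Srebf1, Mlxipl and Plin2 were taken. Other genes given library by library were named after their values were seen.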

Additional observations from a re-analysis of the deposited data

Results flagged for a closer look

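For 13 members, the RAPA difference in LL37 skin differed from that in vehicle-treated skin by the interaction test of edgeR (adjusted p under 0.05). The size of the interaction on the log2 scale was 2.86 for Plin1, 2.02 for Slc2a4, 1.60 for Ces1d, 1.57 for Cd36, 1.55 for Lpl, 1.54 for Plin4 and 1.54 for Lgals12. It was 1.50 for Lipe, 1.41 for Gpd1, 1.33 for Pparg, 1.26 for Adig, 1.08 for Pcx and 1.05 for Lpin1. The count of 13 rests on single libraries, since it was 1 without control replicate 1, LL37 + RAPA replicate 1 or control + RAPA replicate 3. The count over all genes tested fell in the same fits, from 312 called higher to 16, 2 and 10.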

How the results depend on the processing

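The counts of members lower in LL37 than in control and higher in LL37 + RAPA than in LL37 stayed within 1.5 times of 22 and 20 under every alternative run, except that 31 were higher with no limit on the fold change. Leaving out each library in turn gave 19 to 24 and 18 to 22, and 3 to 4 members lower in LL37 + RAPA than in control. In that last comparison, 1 member in place of 0 was higher with no fold limit, with unadjusted p-values and with the compared groups alone, and 0 to 1 with single libraries left out. The interaction called 20 members at unadjusted p with the fold limit kept. Without that limit, its unadjusted p was under 0.05 for 29 members and for 22.5% of all genes. With single libraries left out it called 1 to 21 members, where 2 to 1271 of all genes were called higher. Of the pathway list, 6 were higher and 33 lower in LL37 than in control with no fold limit, 1 was higher with the compared groups alone, and 1 to 5 were with single libraries left out. With RAPA, 28 were higher and 3 lower with no fold limit, 1 was lower at unadjusted p, and 0 to 2 were with single libraries left out. Scaling by library size alone moved the median of all genes in LL37 + RAPA against control by 0.127 and the median of the members to 0.23, and turned the split in LL37 against control from 1570 genes higher and 1946 lower to 1765 and 1738. Uncalled differences from control that changed sign were those of Acly (0.017 by library size alone, and -0.20 to 0.13 with single libraries left out), Acaca (-0.033 to 0.20 with single libraries left out) and Elovl6 (0.0022 by library size alone, and -0.39 to 0.18 with single libraries left out). The cause was not tested.

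The 18 pairs of libraries with the same replicate number correlated between -0.19 and 0.26, 4 of them above 0.1. Pairs with different numbers were not compared, so these values do not decide whether the numbers pair the samples. With the replicate number as a block, 22 members were lower in LL37, 21 were higher with RAPA, and the interaction count changed from 13 to 6. Over all genes, the interaction called 312 higher without the block and 153 with it.

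With 3 libraries per group, each p-value sets a difference against the spread between libraries, which the fit estimates over all 4 groups together. The fold changes of Acvr1c, Pck1 and Thrsp rested on at most 11 counts in each of LL37 replicates 1 and 2.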

Other observations

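Markers of the cells from which fat cells form did not move as 1 list. Of 6 preadipocyte and dermal progenitor markers, Pi16 and Dpp4 were lower in LL37 than in control, at -2.47 ± 0.32 (SE), adjusted p = 0.000149 and -2.00 ± 0.28 (SE), adjusted p = 0.000214, and 0 were higher. Both were still lower in LL37 + RAPA than in control (-1.58 and -1.92), whereas Pdgfra and Dlk1, an inhibitor of fat cell formation, were higher there (1.17 and 1.99). Zfp423, a factor of preadipocyte commitment, was higher in LL37 + RAPA than in LL37 (1.27 ± 0.19 (SE), adjusted p = 0.00182). Among 4 tested brown and beige markers, 2 were lower in LL37 and 1 was higher. Ppargc1a, a coactivator of mitochondrial genes that muscle expresses as well, fell by 4.93 on the log2 scale and Zic1 by 1.01, and Dio2, the deiodinase that makes active thyroid hormone, was higher by 1.11 ± 0.23 (SE), adjusted p = 0.00229. Dio2 was lower with RAPA (-1.29 ± 0.23 (SE), adjusted p = 0.00355). Without LL37 replicate 3, Ppargc1a and Zic1 were higher with RAPA (2.42 and 1.19), and the Dlk1 difference with RAPA moved from 1.55 to 2.35.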
